A study of Homo sapiens with 24 samples.

Results

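The response of the leukaemia line MV-4-11 to ABBV-744 is described here across every gene that the line expressed. Members were the genes with at least 1 FPKM (a fragment count scaled to transcript length and library size, so that levels of different genes can be compared) in at least 2 of 4 libraries, which held for 12152 of the 30373 rows of the deposited table. The libraries were 2 of MV-4-11 treated with ABBV-744 at 200 nM and 2 of MV-4-11 given the solvent DMSO, both for 24 h in RPMI-1640 medium with serum. CD300LB lay just inside this threshold, with 1.001 and 1.16 FPKM in DMSO and 0.515 and 0.403 FPKM in ABBV-744. UNC5A lay just outside, with 0.999 and 1.49 FPKM in DMSO and 0.574 and 0.755 FPKM in ABBV-744. All 4 libraries reached 1 FPKM for 11371 members, 208 members reached it in both DMSO libraries only and 151 in both ABBV-744 libraries only.

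MV-4-11 is an established line from an acute myeloid leukaemia with monocytic features. It carries a fusion of the MLL gene (KMT2A) with AFF1 and an internal tandem duplication in the receptor kinase FLT3, and being a single line it stands for no other leukaemia. BET proteins, among them BRD2, BRD3 and the testis protein BRDT, bind acetylated histone tails through a pair of bromodomains and help RNA polymerase II to leave its pause near the start of genes, partly by bringing the elongation kinase P-TEFb. MLL-rearranged leukaemias are known to depend on BET proteins, and genes near large clustered enhancers, such as MYC and lineage genes, are known to be sensitive to BET inhibitors. ABBV-744 is selective for the second bromodomain, whereas ABBV-075 (mivebresib) blocks both. The study gave the same DMSO and ABBV-744 treatment to SKM-1 and Kasumi-1, which are acute myeloid leukaemia lines, and to the lung carcinoma line NCI-H1299, and gave each line ABBV-075 at 100 nM as well, with 2 libraries in each of 12 groups. Nothing in the labels tells whether the 2 libraries of a group were grown separately. The p-values and standard errors reflect the spread between libraries of a group, pooled over all 12 groups, and this spread may be technical.

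Depth is unknown, because FPKM keeps no counts. In MV-4-11 the libraries of DMSO and ABBV-744 summed to 610228 to 666217 FPKM, 11855 to 12013 genes reached 1 FPKM, and transcripts of the mitochondrial genome took 6.14% to 6.26% of the sum in DMSO and 7.003% to 7.53% in ABBV-744. Over the members the log2 difference between the 2 libraries of a group had an SD of 0.260 in DMSO and 0.255 in ABBV-744. Gene by gene, this difference correlated between DMSO and ABBV-744, with r = 0.385 over 12152 genes. For ABBV-075 in the same line r was -0.021 with DMSO and 0.087 with ABBV-744. The model treats the libraries as independent, and the source of the correlation was not tested. The SKM-1 DMSO pair stood furthest apart, with an SD of 0.664 and mitochondrial shares of 7.82% and 19.4%. It enters the shared estimate of the spread and the comparison with SKM-1. The Kasumi-1 ABBV-075 pair came next with an SD of 0.473, and it enters the shared estimate as well. In the remaining groups the SD lay between 0.179 and 0.301.

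The line matched its label. The monocytic enzyme lysozyme (LYZ) was at 1155 and 1021 FPKM in DMSO and 552 and 492 FPKM in ABBV-744, the myeloid regulator SPI1 at 93.1 and 119.8 FPKM in DMSO and 104 and 127 FPKM in ABBV-744, and the surface lectin CD33 at 118 and 119.9 FPKM in DMSO and 105 and 109 FPKM in ABBV-744. FLT3 was at 165 and 141 FPKM in DMSO and 166 and 157 FPKM in ABBV-744, and the fusion's known target HOXA9 at 52.1 and 44.8 FPKM in DMSO and 74.5 and 60.9 FPKM in ABBV-744. The integrin ITGAM, a marker of mature monocytes, was low in DMSO at 0.851 and 0.865 FPKM. Of the markers of other cells, 3 of 20 for B, T and NK cells (MS4A1, CD2 and LCK), 5 of 16 for erythroid and megakaryocytic cells (among them PF4) and 4 of 16 for epithelial and mesenchymal cells (among them KRT5 and COL1A2) were listed at 0 in all 4 libraries. Of the same lists 3, 3 and 5 genes were members.

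ABBV-744 changed 1402 of the 12152 members, or 11.5%, at an adjusted p under 0.05 in limma with Benjamini-Hochberg adjustment. Of these 560 rose (4.61% of members) and 842 fell (6.93%), so that 60.1% of the calls were falls. These shares stand beside each list count given below, and a list near them was called no more often than the members at large. Rescaling every library to the same FPKM sum turned that balance, with 46.5% falls among 1303 calls, since the ABBV-744 libraries sum to less. Of the 1402 calls, 61 were members that reached 1 FPKM only in ABBV-744 and 142 only in DMSO. These passed the filter only through the group where they were high, so their direction is not independent of it. The list counts below include members that reached 1 FPKM in 1 group only. There were 2 each in the integrin and FLT3 output lists. Several other lists held 1 each, among them the MHC class II, granule, AP-1, interferon and NRF2 lists. Most changes were small. The median called rise was 0.54 and the median called fall -0.69 on the log2(FPKM + 1) scale, a scale that understates the change of low genes, and 44 genes rose and 163 fell at least 2-fold. The median change over the members was 0.02. DMSO and ABBV-744 libraries overlapped for none of the 1402 called genes, and for all members the share without overlap was 57.99%. Without either SKM-1 DMSO library in the fit 2271 members were called, and without 1 of the 4 MV-4-11 libraries the count lay between 725 and 846.

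**Figure D1:**
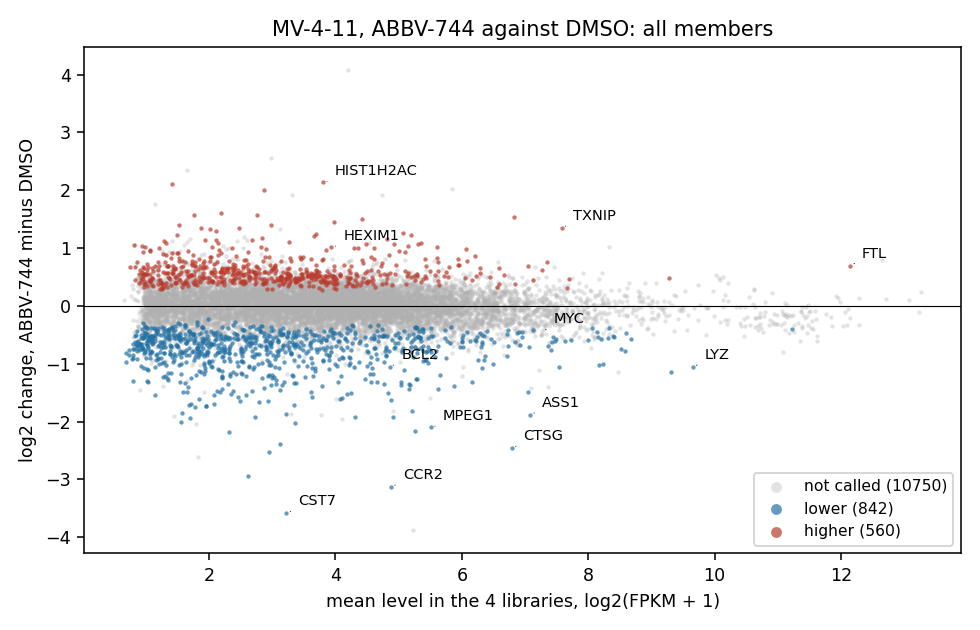
Each point is 1 of the 12152 members, with its mean level over the 4 libraries, as log2(FPKM + 1), on the x axis and its log2 change from DMSO to ABBV-744 on the y axis. Blue points are the 842 genes called lower and red points the 560 called higher, and the deepest called falls (CST7 at -3.58, CCR2 at -3.13) exceed the tallest called rise (HIST1H2AC at 2.14).

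The rises were led by histone genes. HIST1H2AC (also named H2AC6), which encodes a histone H2A, was at 4.88 and 3.55 FPKM in DMSO and 22.8 and 20.7 FPKM in ABBV-744. It rose by 2.14 ± 0.17 on the log2 scale (± standard error from the pooled spread, 2 libraries per group, limma adjusted p = 5.18e-07). HIST1H2BD, which encodes a histone H2B, was at 1.58 and 2.26 FPKM in DMSO and 11.3 and 10.1 FPKM in ABBV-744, a rise of 2.01 ± 0.13 (adjusted p = 2.29e-08). HIST2H2BE, another H2B gene, was at 1.14 and 1.37 FPKM in DMSO and 5.89 and 5.88 FPKM in ABBV-744, a rise of 1.61 ± 0.10 (adjusted p = 2.28e-08). These genes were picked among called rises without overlap, so that both ABBV-744 libraries exceeded both DMSO libraries by choice. The 250 bases before their starts are shown because the members that rose most share a gene family, and their promoters can be compared base by base. The sequences are from RefSeq (GRCh38.p14), at chr6:26123922-26124171 on the plus strand for HIST1H2AC, chr6:26157871-26158120 on the plus strand for HIST1H2BD, and chr1:149886683-149886932 on the minus strand for HIST2H2BE. Capitals mark matches on either strand to 4 motifs. TATAAA is the core of the TATA box. CCAAT is the site of the CCAAT box. GAGGAA is the core of a site for ETS factors such as SPI1, and CACGTG is the site bound by MYC with MAX.
HIST1H2AC: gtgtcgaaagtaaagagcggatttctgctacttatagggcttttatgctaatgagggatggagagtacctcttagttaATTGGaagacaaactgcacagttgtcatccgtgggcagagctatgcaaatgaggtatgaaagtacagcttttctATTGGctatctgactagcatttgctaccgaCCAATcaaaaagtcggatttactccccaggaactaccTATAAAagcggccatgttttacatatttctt
HIST1H2BD: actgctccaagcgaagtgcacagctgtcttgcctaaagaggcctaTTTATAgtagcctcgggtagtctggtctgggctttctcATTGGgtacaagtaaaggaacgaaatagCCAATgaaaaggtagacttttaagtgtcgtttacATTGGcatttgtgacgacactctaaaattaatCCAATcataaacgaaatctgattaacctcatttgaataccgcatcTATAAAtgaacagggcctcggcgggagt
HIST2H2BE: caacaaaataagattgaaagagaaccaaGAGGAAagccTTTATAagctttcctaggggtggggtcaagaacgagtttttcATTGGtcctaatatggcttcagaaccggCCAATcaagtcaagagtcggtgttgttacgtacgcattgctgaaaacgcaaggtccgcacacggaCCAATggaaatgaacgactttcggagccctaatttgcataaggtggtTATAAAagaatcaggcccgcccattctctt
Each promoter held TATAAA on the gene's own strand between 31 and 23 bases before the start, and 3 or 4 copies of CCAAT on one strand or the other. Over one promoter for each of 27305 genes in the table, counted on both strands in the same 250 bases, TATAAA was present in 11.1% and CCAAT in 33%. Among the members called higher that had a promoter, 7.40% of 392 held TATAAA and 37.5% held CCAAT, against 5.16% and 35.8% of 9026 members. Among the members called lower, 9.49% of 590 held TATAAA and 27.5% held CCAAT, so TATAAA was not particular to the rises.

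Of 21 members in the histone list, 10 rose and none fell (6 with a filter of 5 FPKM, which tests fewer genes), with a median change of 0.92, and 4 of the 21 reached 1 FPKM in 1 group only. The linker histone gene HIST1H1C rose from 10.4 and 9.87 FPKM to 33.3 and 28.3 FPKM, by 1.51 ± 0.18, and HIST2H4A, a histone H4 gene, by 1.57 ± 0.15. HIST1H2BK rose by 1.23 ± 0.13, and outside the list HIST2H2AA4 by 1.26 ± 0.23. HIST2H2BF rose by 1.29 ± 0.32, though its call ended when 1 library was left out (adjusted p up to 0.178). Some neighbours moved and some did not. HIST1H3D, the third coding gene after HIST1H2BD in RefSeq order, rose by 1.04 ± 0.29 from means of 0.241 to 1.61 FPKM, a call that ended without 1 library (adjusted p up to 0.241). HIST1H1E, which lies between HIST1H2AC and HIST1H2BD, was not called at 0.16 ± 0.17, and HIST2H2AC, next to HIST2H2BE, was not called at 0.10 ± 0.33. The replacement histone H2AFZ, made outside S phase as well, was not called at -0.09 ± 0.20. H3F3A was at 181 and 185 FPKM in DMSO and 732 and 187 FPKM in ABBV-744, so 1 library alone was high, and it was not called. These libraries were made by poly-A selection, and the RNAs of most clustered histone genes are known to lack a poly-A tail, so the values describe their polyadenylated RNA. Near-identical copies of the histone genes may share reads.

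Most genes known to rise under BET inhibition rose. HEXIM1, which holds P-TEFb inactive, was at 9.10 and 9.21 FPKM in DMSO and 19.3 and 19.7 FPKM in ABBV-744, and rose by 1.01 ± 0.15 (adjusted p = 0.000349). TXNIP, an arrestin that restrains glucose uptake, was at 108 and 105 FPKM in DMSO and 278 and 269 FPKM in ABBV-744, a rise of 1.35 ± 0.12 (adjusted p = 9.4e-07). SERPINI1, a serine protease inhibitor, was at 1.19 and 0.945 FPKM in DMSO and 4.78 and 3.81 FPKM in ABBV-744, a rise of 1.35 ± 0.17. Of the 13 genes in this list 12 rose and none fell (median 1.23). The list was drawn up with earlier results of these libraries known and overlaps the histone list, so its direction is not independent evidence. KLHL24 was the member not called, at 0.37 ± 0.14, though it was in 3 alternative fits. The nuclear RNA NEAT1 rose by 0.79 ± 0.18, a call that ended without 1 library (adjusted p up to 0.12). Among the BET genes themselves BRD2 rose by 0.49 ± 0.11, from 68.7 and 74.3 FPKM to 99.8 and 102 FPKM, a call that also ended without 1 library (adjusted p up to 0.0863). BRD3 was not called at 0.18 ± 0.13, and BRDT was not a member. Elsewhere among 26 BET, P-TEFb and elongation genes the elongation factor ELL2 rose by 0.58 ± 0.16 and ELL3 fell by 0.36 ± 0.10, and both calls ended without 1 library (adjusted p up to 0.192 and 0.24). The other 22 members, among them the pausing factors SUPT5H (0.31 ± 0.26) and NELFE (-0.19 ± 0.15), were not called. POLR2A, the large subunit of RNA polymerase II, was at 27.8 and 34.4 FPKM in DMSO and 56.1 and 72.4 FPKM in ABBV-744, and was the single one of 26 housekeeping genes to change, with a rise of 1.02 ± 0.23 (adjusted p = 0.00737, up to  0.1 without 1 library).

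Other large rises came from several functions. PLD3, a lysosomal exonuclease, was at 51.9 and 62.9 FPKM in DMSO and 153 and 183 FPKM in ABBV-744, a rise of 1.53 ± 0.20. TNF, the inflammatory cytokine, was at 6.36 and 8.54 FPKM in DMSO and 21.4 and 22.6 FPKM in ABBV-744, a rise of 1.46 ± 0.14. PRKAR2B, a regulatory subunit of protein kinase A, rose by 1.40 ± 0.22, the stress gene TP53INP1 by 1.34 ± 0.16, and SERTAD1, a regulator of E2F factors, by 1.21 ± 0.14. ID2, an inhibitor of basic helix-loop-helix factors, was at 26.5 and 23.7 FPKM in DMSO and 58.6 and 50.6 FPKM in ABBV-744, a rise of 1.09 ± 0.14. The rises of NAGK (1.24 ± 0.27) and POLR2J3 (1.15 ± 0.25) were not called in every fit without 1 library (adjusted p up to 0.113 and 0.0822), and POLR2J3 has near-identical copies.

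**Figure D2:**
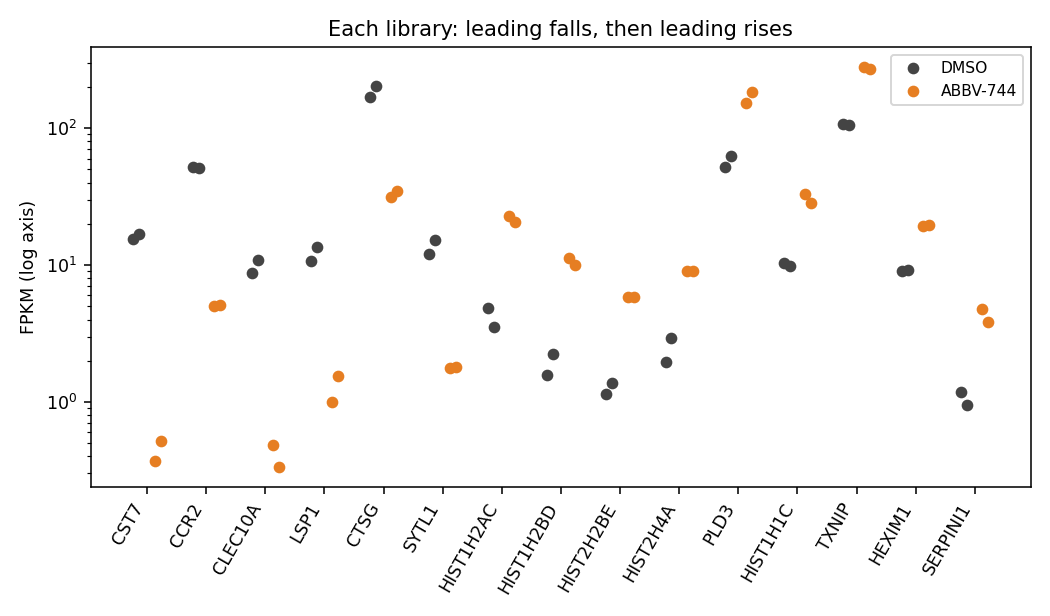
Points are FPKM in each of the 4 libraries on a log axis, dark for DMSO and orange for ABBV-744, for 6 of the largest falls and 9 rises. For each gene both orange points lie on one side of both dark points, from CST7 (15.6 and 16.9 against 0.367 and 0.521) to SERPINI1 (1.19 and 0.945 against 4.78 and 3.81). Except HEXIM1 and SERPINI1, the genes were picked among called changes without overlap, and 57.99% of all members had no overlap.

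The largest called falls exceeded the largest called rise. CST7, an inhibitor of lysosomal cathepsins, was at 15.6 and 16.9 FPKM in DMSO and 0.367 and 0.521 FPKM in ABBV-744, a change of -3.58 ± 0.17 (limma adjusted p = 1.27e-09). CCR2, the receptor through which monocytes follow the chemokine CCL2, was at 52.3 and 51.5 FPKM in DMSO and 4.999 and 5.12 FPKM in ABBV-744, a change of -3.13 ± 0.11 (adjusted p = 7.78e-11). CLEC10A, a galactose-binding lectin of macrophages and dendritic cells, was at 8.76 and 10.9 FPKM in DMSO and 0.483 and 0.337 FPKM in ABBV-744, a change of -2.94 ± 0.07 (adjusted p = 6.11e-13). LSP1, an actin-binding protein of leucocytes, was at 10.7 and 13.6 FPKM in DMSO and 0.995 and 1.56 FPKM in ABBV-744, a change of -2.53 ± 0.15. CTSG, the granule protease cathepsin G, was at 168 and 205 FPKM in DMSO and 31.4 and 34.8 FPKM in ABBV-744. Its change of -2.45 ± 0.67 was called at an adjusted p of 0.0271, and was not called when any 1 of the 4 libraries was left out (adjusted p up to 0.14). SYTL1, which links vesicles to the RAB27 GTPases, was at 12.1 and 15.3 FPKM in DMSO and 1.77 and 1.80 FPKM in ABBV-744, a change of -2.39 ± 0.23 (adjusted p = 4.12e-06).

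The same 250 bases are given for the 3 largest falls that have an entry in the promoter table used, so that they can be read against the histone promoters. They lie at chr3:46353861-46354110 on the plus strand for CCR2, chr14:24576251-24576500 on the minus strand for CTSG and chr1:27341772-27342021 on the plus strand for SYTL1, with the same capitals.
CCR2: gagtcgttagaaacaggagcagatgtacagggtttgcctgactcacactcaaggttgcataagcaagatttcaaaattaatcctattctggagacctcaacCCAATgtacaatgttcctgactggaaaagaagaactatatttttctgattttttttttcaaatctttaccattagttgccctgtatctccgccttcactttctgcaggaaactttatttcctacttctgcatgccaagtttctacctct
CTSG: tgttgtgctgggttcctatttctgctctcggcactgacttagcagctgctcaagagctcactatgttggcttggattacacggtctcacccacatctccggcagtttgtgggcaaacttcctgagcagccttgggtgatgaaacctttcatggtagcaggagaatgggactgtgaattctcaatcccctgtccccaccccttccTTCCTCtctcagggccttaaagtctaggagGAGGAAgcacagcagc
SYTL1: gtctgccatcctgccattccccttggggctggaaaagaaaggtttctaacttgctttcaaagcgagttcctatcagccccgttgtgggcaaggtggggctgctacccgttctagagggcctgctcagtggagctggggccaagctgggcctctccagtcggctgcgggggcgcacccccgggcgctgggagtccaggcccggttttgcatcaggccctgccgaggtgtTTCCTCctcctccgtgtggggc
TATAAA was found in none of these windows. GAGGAA, or its complement on the other strand, was found at 2 places in the CTSG window, the nearer one 16 to 11 bases before the start, and at 1 place in that of SYTL1. It was also found in the window of the rising gene HIST2H2BE, 222 to 217 bases before the start. In the window of CCR2 the single match was CCAAT. Over the promoters of all 27305 genes GAGGAA was present in 23.4%, among members called lower in 29.5% of 590, and among members called higher in 19.4% of 392. Among all members with a promoter the share with GAGGAA was 23.1%. CACGTG was present in 6.49% of all promoters and in 9.38% of those of members. It was present in 10.5% of the promoters of members called higher, in 7.97% of those called lower and in none of the 6 windows printed.

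Some chromosomal neighbours of CCR2 and CLEC10A were called as well. Near CCR2 the chemokine receptor gene CCR1 fell by 0.35 ± 0.10, and CCRL2 rose by 0.31 ± 0.07, and both calls ended without 1 library (adjusted p up to 0.131 and 0.0814). ASGR2 and ASGR1, galactose-binding lectins next to CLEC10A, changed by -1.48 ± 0.15 and -0.81 ± 0.11, both called lower, ASGR1 not with a pseudocount of 0.1. APMAP, next to CST7, was not called at 0.17 ± 0.17.

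Monocyte genes fell more often than they rose. Of 15 members in the monocyte list 8 fell and 1 rose (5 and none with the 5 FPKM filter), with a median of -0.65, although 3 of the 15 reached 1 FPKM in 1 group only. MPEG1, the pore-forming perforin-2 of macrophages, was at 73.6 and 72.6 FPKM in DMSO and 15.9 and 16.6 FPKM in ABBV-744, a change of -2.10 ± 0.12 (adjusted p = 8.83e-09). AIF1, an actin regulator of macrophages, was at 209.9 and 178 FPKM in DMSO and 76.1 and 61.2 FPKM in ABBV-744, a change of -1.49 ± 0.15. LYZ fell by 1.06 ± 0.23 (adjusted p = 0.00591, up to 0.0616 without 1 library). FGR, a SRC kinase of myeloid cells, fell by 1.46 ± 0.10. The alarmin genes S100A8 and S100A9 were low in DMSO (2.59 and 1.99 FPKM, and 4.11 and 4.25 FPKM) and fell further, S100A8 to 0 and 0.253 FPKM and S100A9 to 0.474 and 0.229 FPKM. In the other direction CD86, a costimulatory ligand, rose by 0.88 ± 0.11, from 2.27 and 1.99 FPKM to 4.87 and 4.62 FPKM, and ITGAM by 0.91 ± 0.15, to 2.26 and 2.73 FPKM. TYROBP, a signalling adaptor, was not called at 0.13 ± 0.19, and neither were the receptor CSF1R at -0.32 ± 0.20 and CD68 at 0.38 ± 0.29. In bulk RNA fewer cells of a type and less RNA per cell cannot be told apart.

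Receptors of the myeloid surface fell more often than they rose. None of the 12 chemoattractant receptor genes rose and 7 fell, or 4 with a pseudocount of 0.1. Of the 12, 3 reached 1 FPKM in 1 group only. CXCR4, the receptor for CXCL12 that holds blood cells in marrow, was at 106 and 105 FPKM in DMSO and 58.4 and 55.7 FPKM in ABBV-744, a change of -0.88 ± 0.09 (adjusted p = 1.11e-05). PTAFR, the receptor for platelet-activating factor, fell by 1.16 ± 0.08. CCL2, the ligand of CCR2, was at 8.51 and 5.998 FPKM in DMSO and 2.19 and 1.36 FPKM in ABBV-744, a change of -1.57 ± 0.22 that was not called with that pseudocount. Of 22 Fc, CD300 and leucocyte immunoglobulin-like receptor genes 9 fell and 1 rose (median -0.44), with 5 falls under the pseudocount of 0.1 or without DMSO replicate 2. They included the inhibitory lectin CLEC12A (-1.54 ± 0.13), the neonatal Fc receptor FCGRT (-1.50 ± 0.25) and the receptor CD244 (-1.44 ± 0.12). LILRA2 fell by 1.37 ± 0.28, a call that ended without 1 library (adjusted p up to 0.0575). LAIR1 at 0.29 ± 0.13 and LILRB4 at -0.49 ± 0.16 were not called, though LILRB4 was in 4 alternative fits. SIGLEC6 fell by 2.18 ± 0.08, from 6.64 and 7.605 FPKM to 0.868 and 0.714 FPKM. CD180, which restrains Toll-like receptor 4, was at 44.8 and 40.6 FPKM in DMSO and 35.4 and 30.8 FPKM in ABBV-744, a change of -0.36 ± 0.10 (adjusted p = 0.0316, up to 0.282 without 1 library). Its partner LY86 fell by 0.58 ± 0.17, a call that also ended without 1 library (adjusted p up to 0.183), and the other 12 genes of the Toll-like receptor list were not called. Of 20 integrin and leucocyte surface genes 5 fell and 2 rose, the falls including CD38 at -1.22 ± 0.14 and the adhesion molecule PECAM1 at -0.96 ± 0.08. Of the 20, 2 reached 1 FPKM in 1 group only, among them the rising ITGAM. The falls in this list were 2 after rescaling, 3 with a pseudocount of 0.1 and 2 to 4 without 1 of the 4 libraries.

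MHC class II genes, which present peptides to helper T cells, fell in part, whereas no MHC class I gene was called here. Of 11 class II members 7 fell and none rose (median -0.69, beside 0.02 over the members). With a pseudocount of 0.1 in place of 1 the class II count was 4. HLA-DRA was at 81.9 and 84.6 FPKM in DMSO and 35.5 and 27.7 FPKM in ABBV-744, a change of -1.38 ± 0.21 (adjusted p = 0.000396). HLA-DPA1 changed by -1.18 ± 0.22, HLA-DQB1 by -0.81 ± 0.14 (not called with that pseudocount) and CIITA, the factor that switches these genes on, by -0.70 ± 0.12 (adjusted p = 0.000807). CIITA was at 4.43 and 5.17 FPKM in DMSO and 2.02 and 3.22 FPKM in ABBV-744. The invariant chain CD74 was not called at -0.43 ± 0.21, though it was in the fit of the 6 MV-4-11 libraries alone. None of the 15 class I genes was called (1 lower in the fit of the 6 MV-4-11 libraries alone), with HLA-B at -0.17 ± 0.25 and B2M, the light chain, at 0.26 ± 0.16.

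Granule genes included deep falls and abundant genes that were not called. Of 13 members in the granule and progenitor list 5 fell and none rose. Besides CTSG and CST7, LGALS12, a galectin of granulocytes, changed by -1.38 ± 0.23, the kinase MATK by -1.26 ± 0.24 and the stem cell factor receptor KIT by -1.12 ± 0.13. The granule proteins AZU1, at 389.7 and 470.2 FPKM in DMSO and 420.0 and 495 FPKM in ABBV-744, and PRTN3, at 180.4 and 236 FPKM in DMSO and 157 and 172 FPKM in ABBV-744, were not called (0.09 ± 0.34 and -0.32 ± 0.34). SRGN, the proteoglycan that packs granules, was not called at -0.51 ± 0.27, though it was in the fits of the MV-4-11 libraries alone.

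**Figure D3:**
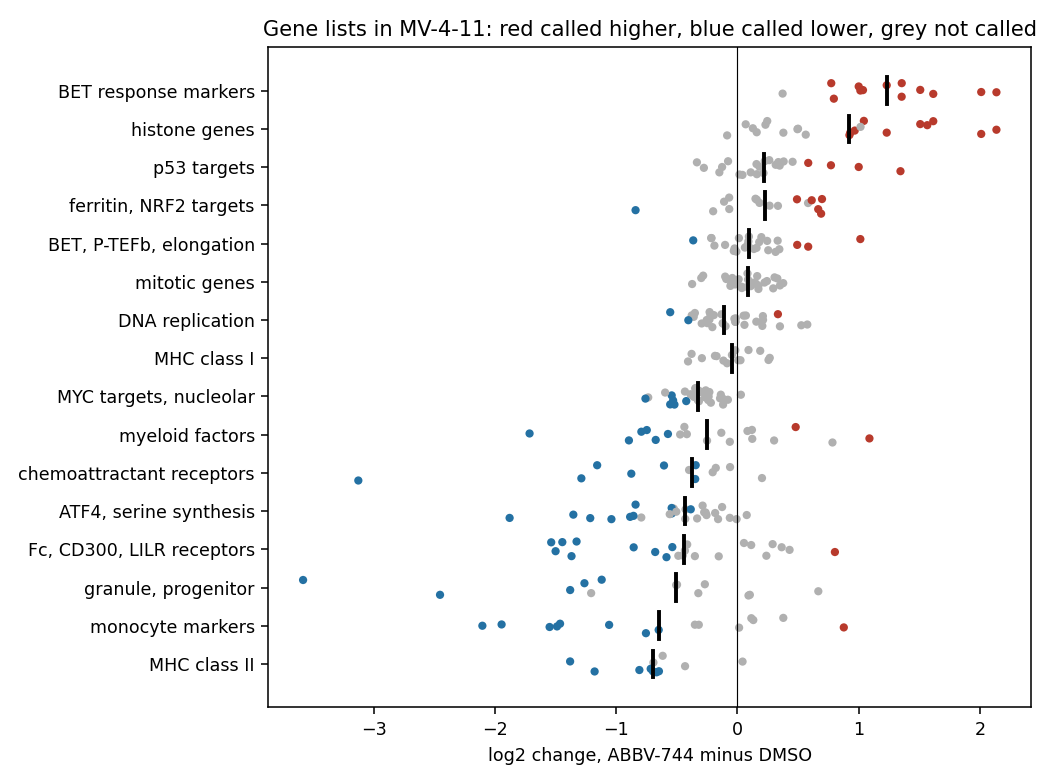
Each point is 1 member of a gene list, placed by its log2 change from DMSO to ABBV-744, red where called higher, blue where called lower and grey where not called, and the black bar is the list's median. The medians run from 1.23 for BET response markers to -0.69 for MHC class II genes, while none of 30 mitotic and 15 MHC class I members is coloured.

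Transcription factors of myeloid cells changed in both directions. Of 19 members 6 fell and 2 rose, and 3 or 4 fell without 1 of the 4 libraries. KLF4, which drives monocyte differentiation, was at 17.0 and 12.4 FPKM in DMSO and 4.16 and 3.33 FPKM in ABBV-744, a change of -1.71 ± 0.13 (adjusted p = 3.42e-07). KLF6 changed by -0.89 ± 0.17 and IRF4 by -0.75 ± 0.08. KLF2 fell by 0.79 ± 0.19, and its call ended without 1 library (adjusted p up to 0.101). SPI1 at 0.12 ± 0.24, CEBPA at 0.12 ± 0.21 and GFI1 at -0.13 ± 0.12 were not called. Among AP-1 and immediate early genes 5 of 15 fell and 2 rose, whereas without 1 of the 4 libraries 3 to 5 fell and none rose. FOSB, a partner of JUN, was at 64.2 and 59.2 FPKM in DMSO and 11.4 and 14.8 FPKM in ABBV-744, a change of -2.16 ± 0.19 (adjusted p = 1.57e-06). JUN was at 11.9 and 12.1 FPKM in DMSO and 4.82 and 3.66 FPKM in ABBV-744, a change of -1.32 ± 0.14 (adjusted p = 6.94e-06). FOS, the most abundant of them, was not called at -0.37 ± 0.27 (but called in the fit of the 6 MV-4-11 libraries alone), nor was JUNB at 0.23 ± 0.25.

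In the list of the MLL fusion programme 2 of 20 members rose and 2 fell, and 1 fell without any 1 of the 4 libraries or after rescaling. BCL2, which blocks apoptosis, was at 39.8 and 36.3 FPKM in DMSO and 17.9 and 17.7 FPKM in ABBV-744, a change of -1.05 ± 0.12 (adjusted p = 1.5e-05). CDK6, a kinase of the G1 phase, was at 40.2 and 34.4 FPKM in DMSO and 20.97 and 23.7 FPKM in ABBV-744, a change of -0.71 ± 0.19 (adjusted p = 0.0249) that was not called when any 1 of the 4 libraries was left out (up to 0.185). HOXA10 was at 31.8 and 28.0 FPKM in DMSO and 56.8 and 50.1 FPKM in ABBV-744, a rise of 0.82 ± 0.12 (adjusted p = 0.000248). The chromatin organiser SATB1 rose by 0.69 ± 0.10, from 101 and 99.2 FPKM to 161 and 163 FPKM. HOXA9 at 0.47 ± 0.16 (adjusted p = 0.0788), its cofactor MEIS1 at 0.08 ± 0.17, MYB at 0.10 ± 0.12 and FLT3 at 0.08 ± 0.14 were not called. HOXA9 was called in the fits without a SKM-1 DMSO library. Downstream of FLT3, 5 of 20 output genes fell and 2 rose, and 2 or 3 fell without 1 of the 4 libraries. IL2RA, a target of STAT5, changed by -1.06 ± 0.08, and the feedback inhibitor SOCS3 by -0.59 ± 0.11. In the separate list of 15 myeloid growth factor receptor genes 1 rose and 2 fell. Its falls included IL3RA, at 32.2 and 37.9 FPKM in DMSO and 18.2 and 19.2 FPKM in ABBV-744, a change of -0.87 ± 0.17 (limma adjusted p = 0.00243). Among the FLT3 output genes DUSP6 at -0.26 ± 0.19 and PIM1 at 0.40 ± 0.12 were not called, though PIM1 was in 5 alternative fits.

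MYC, the growth regulator, was at 178 and 174 FPKM in DMSO and 130.0 and 129.6 FPKM in ABBV-744. The groups did not overlap, but the difference of -0.44 ± 0.18 was not called (adjusted p = 0.132), while it was called in the fits of the MV-4-11 libraries alone and in those without a SKM-1 DMSO library. In the MAX network the antagonist MXI1 fell by 0.64 ± 0.16 (adjusted p up to 0.189 without 1 library), and the other 10 members were not called. In the list of MYC targets and nucleolar factors 6 of 32 were called, all lower, with a median of -0.32. The count of this list was 12 without either SKM-1 DMSO library and 1 to 4 without 1 of the 4 MV-4-11 libraries. The nucleoside kinase NME1 was at 199 and 226 FPKM in DMSO and 131 and 119 FPKM in ABBV-744, a change of -0.76 ± 0.16, and DKC1, which modifies ribosomal RNA, fell by 0.55 ± 0.10. The call of NME1 ended without 1 library (adjusted p up to 0.0584). NPM1 at -0.24 ± 0.24 and NCL at -0.12 ± 0.29, the abundant nucleolar proteins, were not called. Among 35 cytosolic ribosomal protein genes RPL11 alone was called, at -0.39 ± 0.12, and not when any 1 of the 4 libraries was left out (adjusted p up to 0.26).

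Cell cycle genes were grouped as mitotic, replication and regulatory genes. None of 30 mitotic genes was called, in a list whose changes ran from -0.37 to 0.38. TOP2A was at -0.04 ± 0.17 and NUSAP1 at 0.22 ± 0.15. At an unadjusted p under 0.05 limma gave 2940 of the 12152 members, of which 2 belonged to the mitotic list, 8 of 32 to the replication list and 5 of 16 to the list of G1 and CDK regulators. In the fits without a SKM-1 DMSO library 2 mitotic genes were called higher and 2 lower. Of 32 replication genes 2 fell and 1 rose, beside 6.93% and 4.61% over all members. The rise of RRM2, a subunit of the enzyme that makes deoxynucleotides, was 0.33 ± 0.10, and the changes of POLE2 and GINS3, genes of the replication fork, were -0.55 ± 0.17 and -0.40 ± 0.13. None of these 3 was called when any 1 of the 4 libraries was left out (adjusted p up to 0.283, 0.312 and 0.284). MCM4 was not called at -0.03 ± 0.13, nor PCNA at 0.21 ± 0.12. Of 16 regulators of G1 and of cyclin-dependent kinases 2 rose and 2 fell, and none fell in a fit without 1 of the 4 MV-4-11 libraries or after rescaling. The CDK inhibitor CDKN1A was at 45.0 and 53.3 FPKM in DMSO and 78.8 and 90.0 FPKM in ABBV-744, a rise of 0.77 ± 0.18 (adjusted p = 0.0116, up to 0.123 without 1 library). Of 23 p53 target genes 4 rose and none fell, and 7 rose without either SKM-1 DMSO library. BTG2, an antiproliferative gene, was at 11.9 and 12.3 FPKM in DMSO and 26.5 and 23.9 FPKM in ABBV-744, a rise of 0.9997 ± 0.10 (adjusted p = 8.57e-06). BAX was not called at 0.04 ± 0.20. In the BCL2 family BCL2L11, which encodes the death activator BIM, was at 6.19 and 6.32 FPKM in DMSO and 8.85 and 9.66 FPKM in ABBV-744, a rise of 0.50 ± 0.10 (adjusted p = 0.0028). MCL1 at 0.21 ± 0.12 and BCL2L1 at -0.39 ± 0.19 were not called.

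Genes of amino acid metabolism were among those that fell. Of 27 genes of the ATF4 stress response and serine synthesis 10 fell and none rose (median -0.43). ASS1, which makes argininosuccinate, was at 193 and 231 FPKM in DMSO and 52.8 and 60.9 FPKM in ABBV-744, a change of -1.88 ± 0.28 (adjusted p = 0.000307). TRIB3, a pseudokinase induced by ATF4, was at 48.2 and 52.1 FPKM in DMSO and 15.8 and 22.8 FPKM in ABBV-744, a change of -1.35 ± 0.24. CBS and CTH, which turn homocysteine into cysteine, changed by -1.21 ± 0.19 and -1.04 ± 0.13. The mitochondrial folate enzyme ALDH1L2 was at 30.99 and 28.6 FPKM in DMSO and 14.7 and 16.7 FPKM in ABBV-744, a change of -0.88 ± 0.11. ATF4 itself was not called at -0.16 ± 0.15. SLC38A5, a glutamine and serine transporter outside the list, was at 8.58 and 10.3 FPKM in DMSO and 1.68 and 1.82 FPKM in ABBV-744, a change of -1.92 ± 0.28 (adjusted p = 0.000241).

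Genes of iron storage and oxidant defence rose in part. Of 16 ferritin and NRF2 target genes 5 rose and 1 fell, and 2 to 4 rose without 1 of the 4 libraries. FTL, the ferritin light chain, was at 3366 and 3548 FPKM in DMSO and 5472 and 5738 FPKM in ABBV-744, a rise of 0.70 ± 0.15 (adjusted p = 0.00688, up to 0.0616 without 1 library). HMOX1, which degrades haem, rose by 0.67 ± 0.13 from under 1 FPKM in DMSO. SLC7A11, the cystine importer, was at 8.32 and 6.62 FPKM in DMSO and 3.40 and 4.04 FPKM in ABBV-744, a change of -0.84 ± 0.15. Of 26 lysosome genes 2 rose and 1 fell. PSAP, the precursor of the saposins, was at 40.7 and 47.3 FPKM in DMSO and 82.5 and 93.0 FPKM in ABBV-744, a rise of 0.98 ± 0.17 (limma adjusted p = 0.00115). The cathepsin gene CTSH was also called, while the cathepsin genes CTSD, CTSB and CTSZ were not (0.05 ± 0.26, 0.37 ± 0.18 and 0.06 ± 0.18). Of 21 glycolysis genes 1 rose and 2 fell. PDK1, which restrains pyruvate dehydrogenase in the mitochondrion, fell by 0.82 ± 0.11, and GAPDH was not called at -0.02 ± 0.25. The called shares of the lysosome and glycolysis lists, and of the cholesterol list that follows, lay near the 11.5% over all members. Of 32 cholesterol and fatty acid genes 3 rose and 1 fell, the elongase ELOVL6 at -0.79 ± 0.12, and without 1 of the 4 libraries 1 or none rose. Interferon-stimulated genes were split, with 4 of 16 higher and 1 lower. Without 1 of the 4 libraries 1 or 2 were higher, and in a fit of the 4 libraries alone 5 were higher and 4 lower. XAF1 was at 37.4 and 32.3 FPKM in DMSO and 13.7 and 13.2 FPKM in ABBV-744, a change of -1.31 ± 0.20 that was not called with a pseudocount of 0.1, and GBP2 rose by 0.69 ± 0.10. IFITM1 was at 179 and 216 FPKM in DMSO and 69.1 and 76.4 FPKM in ABBV-744, and its difference of -1.42 ± 0.55 was not called (adjusted p = 0.117), though it was in the fits of the MV-4-11 libraries alone.

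Some markers of other cells were expressed by the line. IGLL1, a gene of B-cell precursors, was at 3.04 and 4.39 FPKM in DMSO and 0 and 0.348 FPKM in ABBV-744, and NKG7, a granule protein of killer cells, was at 33.2 and 43.5 FPKM in DMSO and 13.3 and 15.4 FPKM in ABBV-744, a change of -1.35 ± 0.24 (adjusted p = 0.00147). CD4, a coreceptor of T cells that monocytes also carry, was at 90.1 and 97.4 FPKM in DMSO and 118 and 125 FPKM in ABBV-744 and was not called (0.37 ± 0.13), though it was in the fit of the 6 MV-4-11 libraries alone. These 3 were the members among the 20 B, T and NK cell markers, and the summed level of the list, most of it CD4, was 129 and 149 FPKM in DMSO and 134 and 144 FPKM in ABBV-744. Of the erythroid and megakaryocytic markers the platelet receptor gene GP1BA was at 0.839 and 1.04 FPKM in DMSO and 2.07 and 2.19 FPKM in ABBV-744, a rise of 0.69 ± 0.18 that was not called when any 1 of the 4 libraries was left out (adjusted p up to 0.148). These markers summed to 15.1 and 16.6 FPKM in DMSO and 11.5 and 12.01 FPKM in ABBV-744, and epithelial and mesenchymal markers, most of their sum being VIM, to 320 and 306 FPKM in DMSO and 379 and 368 FPKM in ABBV-744. The part of these markers in the other changes was not tested.

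ABBV-075 at 100 nM gives a second set of values in the same cells. The doses differ and both compounds were set against the same DMSO libraries, so the values are given side by side. HEXIM1 was at 59.98 and 58.4 FPKM with ABBV-075, a change of 2.57 from DMSO beside 1.01 with ABBV-744. TXNIP changed by 3.36 beside 1.35, CCR2 by -5.17 beside -3.13, BCL2 by -1.98 beside -1.05 and MYC by -1.15 beside -0.44. For CD180 the values were -2.87 and -0.36. In limma at these doses 2649 of 12156 tested genes (21.8%) differed between the compounds, 1478 higher and 1171 lower with ABBV-744. MPEG1 was at 0.788 and 0.656 FPKM with ABBV-075 against 15.9 and 16.6 FPKM with ABBV-744, a difference of 3.33 ± 0.12 (adjusted p = 1.58e-10). MS4A6A, a membrane protein of monocytes, was at 475 and 434 FPKM in DMSO, 296 and 249.7 FPKM with ABBV-744 and 27.2 and 24.7 FPKM with ABBV-075. NAPSB was at 22.7 and 23.6 FPKM with ABBV-744 against 0.840 and 1.18 FPKM with ABBV-075. ARRDC4, an arrestin related to TXNIP, was at 12.4 and 10.5 FPKM with ABBV-744 against 118 and 122 FPKM with ABBV-075, a difference of -3.29 ± 0.14 (adjusted p = 3e-10). The cancer-testis gene XAGE1B, which has near-identical copies, was at 0 and 10.7 FPKM in the DMSO libraries, so that these disagreed. It was listed at 0 in both ABBV-744 libraries and at 80.6 and 58.6 FPKM with ABBV-075.

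Not every gene was called as further from DMSO with ABBV-075 than with ABBV-744. JUN was at 9.29 and 9.90 FPKM with ABBV-075, and at 4.82 and 3.66 FPKM with ABBV-744, a difference of -1.02 ± 0.14 (adjusted p = 4.65e-05). FOSB was at 12.8 and 18.5 FPKM with ABBV-075 and KLF4 at 2.97 and 3.30 FPKM. Their differences between the compounds, -0.23 ± 0.19 (95% interval -0.64 to 0.18) and 0.20 ± 0.13 (95% interval -0.09 to 0.48), were not called. LYZ was at 378 and 349 FPKM with ABBV-075, a difference of 0.52 ± 0.23 that was not called (adjusted p = 0.123).

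**Figure D4:**
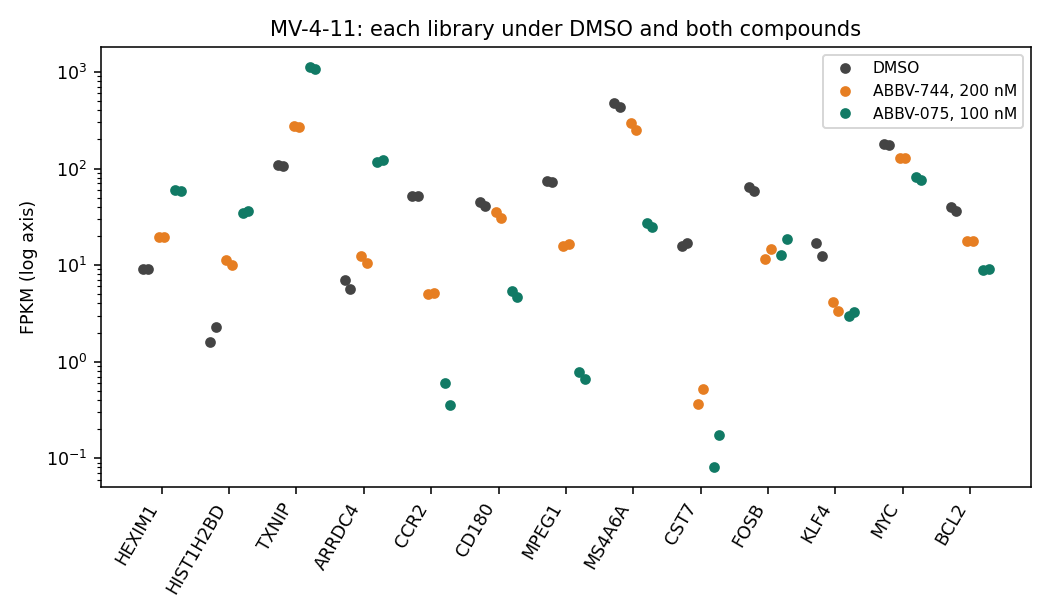
Points are FPKM in each MV-4-11 library on a log axis, dark for DMSO, orange for ABBV-744 at 200 nM and green for ABBV-075 at 100 nM. HEXIM1, TXNIP and ARRDC4 climb from DMSO through ABBV-744 to ABBV-075, CD180 and MPEG1 fall the same way, and the orange and green points of FOSB and KLF4 lie close together.

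The response of MV-4-11 was also set against that of each other line, by testing the difference between the changes. Against SKM-1 609 of 11263 genes (5.41%) differed, 195 with a higher and 414 with a lower change in MV-4-11. The count rested on the SKM-1 DMSO pair: it was 3677 without replicate 1, the library with 7.82% mitochondrial transcripts, and 599 without replicate 2. Rescaling to a common FPKM sum left 43.4% of these calls lower, against 68.0%. AMICA1, an adhesion protein of leucocytes, moved in opposite directions. It was at 13.1 and 14.1 FPKM in DMSO and 2.87 and 3.08 FPKM in ABBV-744 in MV-4-11, and in SKM-1 at 7.66 and 5.40 FPKM in DMSO and 21.7 and 21.4 FPKM in ABBV-744, a difference of -3.47 ± 0.15 (adjusted p = 1.75e-09). LSP1 likewise fell in MV-4-11 and was higher with ABBV-744 in SKM-1, at 377 and 433 FPKM against 289 and 238 FPKM, a difference of -3.15 ± 0.21 (adjusted p = 4.51e-07). The chemokine CCL3 was at 4.83 and 4.84 FPKM in DMSO and 6.12 and 4.71 FPKM in ABBV-744 in MV-4-11, and in SKM-1 at 4.25 and 2.84 FPKM in DMSO and 42.3 and 41.2 FPKM in ABBV-744. Its difference was -3.12 ± 0.17 (adjusted p = 5.24e-08). KLF4 and JUN changed by -1.71 and -1.32 in MV-4-11 and by 0.64 and 0.95 in SKM-1, differences of -2.35 ± 0.19 (adjusted p = 2.67e-06) and -2.27 ± 0.19 (adjusted p = 4.35e-06). CALR, a chaperone of the endoplasmic reticulum, was not called in MV-4-11, at 225 and 243 FPKM in DMSO and 227 and 243 FPKM in ABBV-744, while in SKM-1 it was at 929 and 1501 FPKM in DMSO and 259 and 287 FPKM in ABBV-744, a difference of 2.12 ± 0.27 (adjusted p = 0.000205). TARP, a transcript of the T-cell receptor gamma locus whose rows overlap those of TRGC2, changed by -0.09 in MV-4-11 and -2.45 in SKM-1 (difference 2.36 ± 0.22, adjusted p = 1.23e-05). The histone gene HIST2H2BE rose less in MV-4-11 than in SKM-1, with changes of 1.61 and 2.67 (difference -1.06 ± 0.14, adjusted p = 0.00036), and CD180 fell less, with -0.36 and -1.40 (difference 1.04 ± 0.14, adjusted p = 0.000457). For HEXIM1 the difference was not called (0.14 ± 0.22, adjusted p = 0.764). Its SKM-1 DMSO libraries were at 7.33 and 12.4 FPKM, and the difference was 0.48 and called without the first of them and -0.20 and not called without the other.

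Against Kasumi-1 419 of 10758 genes (3.89%) differed, 295 with a higher and 124 with a lower change in MV-4-11. That balance depended on the scaling, with 8.4% lower after rescaling to a common FPKM sum, which moved the median difference over the genes from 0.08 to 0.26, and 50.1% lower under median-of-ratios scaling. JUN changed by -1.32 in MV-4-11 and by 0.51 in Kasumi-1, a difference of -1.83 ± 0.19 (adjusted p = 0.000264). The integrin ITGB2 was at 72.5 and 87.3 FPKM in DMSO and 77.5 and 88.5 FPKM in ABBV-744 in MV-4-11, and in Kasumi-1 at 18.8 and 14.5 FPKM in DMSO and 4.10 and 3.95 FPKM in ABBV-744, a difference of 1.86 ± 0.34 (adjusted p = 0.00733). SCD, which desaturates fatty acids, was at 42.2 and 42.3 FPKM in DMSO and 46.7 and 46.8 FPKM in ABBV-744 in MV-4-11, and in Kasumi-1 at 102 and 95.9 FPKM in DMSO and 37.4 and 33.5 FPKM in ABBV-744, a difference of 1.60 ± 0.15 (adjusted p = 0.00013). LYZ, which fell in MV-4-11, was at 5.64 and 4.596 FPKM in DMSO and 10.6 and 6.27 FPKM in ABBV-744 in Kasumi-1. Its difference of -1.65 ± 0.32 (adjusted p = 0.0104) was not called in every fit without 1 library (adjusted p up to 0.0562). HIST1H2AC changed by 2.91 in Kasumi-1, a difference that was not called (-0.77 ± 0.25, adjusted p = 0.095) but was called in 2 of 10 fits without 1 library.

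Against NCI-H1299, 45 of 10599 genes (0.425%) differed, 22 with a higher and 23 with a lower change in MV-4-11. The count was 194 without either SKM-1 DMSO library and 469 in a fit of the libraries of these 2 lines alone. Genes under 1 FPKM in the carcinoma line, among them CCR2 and MPEG1, were not tested. HOXA10 rose in MV-4-11 and was at 1.42 and 1.51 FPKM in DMSO and 0.775 and 0.698 FPKM in ABBV-744 in NCI-H1299, a difference of 1.32 ± 0.17 (adjusted p = 0.00313). GRIP1, a scaffold protein known from synapses, was at 32.8 and 27.9 FPKM in DMSO and 7.84 and 6.76 FPKM in ABBV-744 in MV-4-11, where it changed by -1.92. In NCI-H1299 it was at 1.46 and 1.72 FPKM in DMSO and 1.12 and 1.29 FPKM in ABBV-744. It changed there by -0.23 (difference -1.68 ± 0.17, adjusted p = 0.000431), and so low a level limits a fall on this scale. KLF4 changed by -1.71 and -0.48, a difference of -1.23 ± 0.19 (adjusted p = 0.00922, up to 0.0585 without 1 library). HIST1H2AC, HIST1H2BD and HEXIM1 changed by 1.88, 1.87 and 0.61 in NCI-H1299, and their differences from MV-4-11 were not called (adjusted p = 0.934, 0.978 and 0.666).

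**Figure D5:**
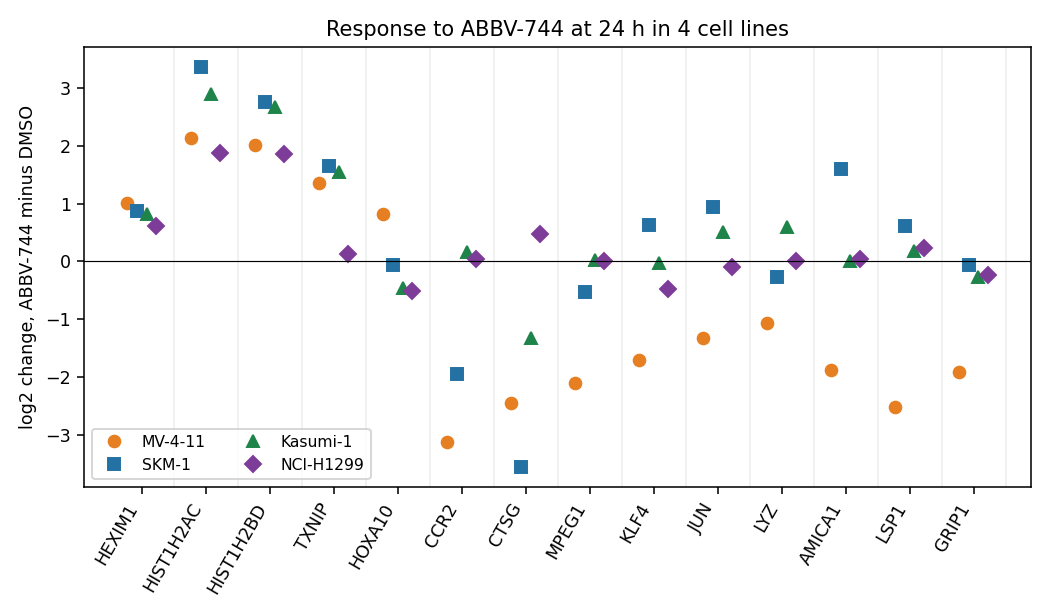
Points are the log2 change from DMSO to ABBV-744 in each of 4 lines, orange circles for MV-4-11, blue squares for SKM-1, green triangles for Kasumi-1 and purple diamonds for NCI-H1299, with no error bars. HEXIM1 and both histone genes lie above 0 in each line, whereas MPEG1, KLF4, AMICA1, LSP1 and GRIP1 lie below -1.5 in MV-4-11 and above -1 in the other lines, where some were barely expressed. MPEG1, AMICA1 and LSP1 were under 1 FPKM in every DMSO and ABBV-744 library of Kasumi-1 and NCI-H1299, as was KLF4 in Kasumi-1, so their points near 0 are set by their low level. In the same libraries GRIP1 was at 0.555 to 1.15 FPKM in Kasumi-1 and 1.12 to 1.72 FPKM in NCI-H1299, which limits its fall there.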

How the data were processed

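RNA was measured in 24 libraries, 2 for each of 4 cell lines under DMSO, ABBV-744 or ABBV-075. Per the labels' protocols, total RNA was poly-A selected and turned into indexed cDNA libraries. The authors deposited 1 table of FPKM values, already scaled to transcript length and library size. The submitters' processing notes name DESeq2 without a role or version. Which aligner, quantifier, build and annotation were used is not given in the sources used here. Depth is unknown, so no interval for counting error can be given.

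Each value was taken as log2(FPKM + 1), and a gene entered a comparison when 2 of its libraries reached 1 FPKM. One limma model (R 4.3.3, limma 3.58.1, statmod 1.5.0; trended, robust moderated variances) was fitted to 12 groups over 15370 genes, with 12 residual degrees of freedom, and p-values were adjusted by Benjamini-Hochberg within each comparison at a threshold of 0.05. Differences between lines were differences of changes in this model. The scripts were tested on simulated data. Tables and figures used Python 3.11.15, numpy 2.4.6, pandas 2.3.3 and matplotlib 3.10.9. Promoters and gene order came from RefSeq tables (GRCh38.p14), and 11297 members matched there (10433 by symbol, 827 by synonym and 37 by Ensembl identifier).

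The members and the 39 gene lists (790 genes, 653 of them members) were chosen with earlier results of these data known. Genes were named by rule: the targets of the study and textbook BET genes, the 20 largest called rises and the 20 largest called falls with a mean of 5 FPKM or more in a group and no overlap, in each list the 5 largest called changes and the 4 most abundant genes not called, and the 6 largest differences in each direction between compounds or lines, from which a selection is printed. Chromosomal neighbours, and KLF4, JUN, CD180, HOXA10, HIST2H2BE, LYZ and HEXIM1 in the comparisons of compounds or lines, were chosen after their values were seen. Alternatives covered the pseudocount, the filter, the scaling, the variance model, the libraries fitted and each left-out library. Results for a few genes that these rules would name are not reported here.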

Additional observations from a re-analysis of the deposited data

Results flagged for a closer look

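The response to ABBV-744 differed between MV-4-11 and another line, by a test of the difference itself, for 609 genes against SKM-1, 419 against Kasumi-1 and 45 against NCI-H1299. Among the genes named above, the change was lower in MV-4-11 than in SKM-1 for AMICA1 (-3.47), LSP1 (-3.15), CCL3 (-3.12), KLF4 (-2.35), JUN (-2.27) and HIST2H2BE (-1.06). It was higher than in SKM-1 for TARP (2.36), CALR (2.12) and CD180 (1.04). Against Kasumi-1 the difference was -1.83 for JUN, -1.65 for LYZ, 1.86 for ITGB2 and 1.60 for SCD. Against NCI-H1299 it was 1.32 for HOXA10, -1.68 for GRIP1 and -1.23 for KLF4. These are differences of log2(FPKM + 1) changes in limma. With 2 libraries per group, no group was large enough to test a single library as an outlier.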

How the results depend on the processing

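Of 108 named genes called between ABBV-744 and DMSO, 75 were called the same way under every alternative run and 87 under every alternative that kept all 4 libraries. None reversed. Of 56 named genes not called, 10 were called under at least 1 alternative: CD4, CD74, FOS, HOXA9, IFITM1, KLHL24, LILRB4, MYC, PIM1 and SRGN. Of 30 named differences between compounds or lines, 23 were called the same way throughout. The count of 1402 changed genes became 753 with a filter of 5 FPKM and 207 when a 2-fold change was also required, and it ran from 725 to 2271 when single libraries were left out. The count between the compounds ran from 1636 to 3586 in the same way. Against SKM-1 the count was 390 with a pseudocount of 0.1, 350 with the 5 FPKM filter, 1441 with no filter, 137 in a fit of those 2 lines, and 253 to 3677 with single libraries left out. Against Kasumi-1 it was 280 with the pseudocount of 0.1, 238 with the 5 FPKM filter, 1137 with no filter, 860 after rescaling, 235 in the fit of 2 lines, and 125 to 1241 with single libraries left out. Against NCI-H1299 it was 20, 12, 927, 35 and 469 under those settings in turn, and 12 to 194 with single libraries left out, with 40.0% of the 35 lower against 51.1% of 45. The cause of these shifts was not tested, except that a stricter filter tests fewer genes. With an arm of 1 library, that library is assumed to vary like the other groups. No paired analysis was run, because the labels give no replicate numbers that link libraries across groups. The library differences of DMSO and ABBV-744 correlated all the same (r = 0.385). Standard errors and calls take these libraries as independent, and the effect of a shared replicate structure on them was not tested. Without counts, low genes cannot be given a depth limit.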

Other observations

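The most extreme differences between DMSO and ABBV-744 were not called, although the libraries of the groups did not overlap. HYPK was at 64.7 and 73.1 FPKM in DMSO and 3.63 and 3.85 FPKM in ABBV-744, a change of -3.88 ± 1.77 (limma adjusted p = 0.195). SERF2-C15ORF63 was at 1.05 and 1.08 FPKM in DMSO and 35.5 and 32.1 FPKM in ABBV-744, a change of 4.07 ± 1.93 (adjusted p = 0.214). With ABBV-075 the libraries of MV-4-11 were at 58.8 and 5.82 FPKM for HYPK and at 1.52 and 36.2 FPKM for SERF2-C15ORF63. The model pools the spread of all groups, and the part of overlapping transcripts in these values was not tested.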
